A study of Mus musculus with 16 samples.

Results

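The SOCS, CISH and PIM genes encode proteins that cytokine and antigen receptor signals induce in T cells and that act back on those signals. Their members on the array were taken as every gene whose symbol was Cish, Socs1, Socs2, Socs3, Socs5, Socs7, Pim1, Pim2 or Pim3. All 9 were among the 18138 genes of the array table, each with 1 entry. Gene expression was measured with Illumina MouseRefSeq8 bead arrays in D10 cells, a mouse T helper 2 line derived from a T cell clone, so that all samples came from 1 cell line. The line was maintained in medium with 25 IU/ml of recombinant human IL-2, which itself signals through JAK kinases and STAT5. The study does not say whether IL-2 was present during treatment and stimulation. Cells were controls or received 10 μM Akti1/2, an allosteric inhibitor of the kinases Akt1 and Akt2, for 1 h, and were then stimulated through CD3 and CD28 with biotinylated antibodies and streptavidin for 0, 2, 6 or 12 h. The study's methods call the control cells untreated, whereas its results speak of solvent. Whether differences between the arms include an effect of the solvent therefore cannot be told apart. This gave 8 groups of 2 arrays each, 16 arrays in all.

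CISH and the SOCS proteins carry an SH2 domain, which binds phosphorylated tyrosines of cytokine receptors or JAK kinases, and a SOCS box, which recruits an elongin and cullin ubiquitin ligase. STAT factors activated by a cytokine switch on several of these genes, and the protein made then dampens the receptor, which closes a negative feedback loop. The PIM kinases are serine and threonine kinases that are active once made, so that their activity follows their mRNA and protein amount. They promote growth and survival of lymphocytes and share several substrates with Akt.

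The arrays had mean intensities of 394 to 544, with 6288 to 6907 genes above background. Above background meant a detection p under 0.01, computed here from the negative controls of each array. Both arrays of the 2 h Akti1/2-treated group had the lowest mean intensities of the series. Arrays of the same group correlated at 0.986 to 0.994. Of 10 markers of T helper 2 cells on the array, 7 were above background on every array and Maf and Ccr4 on none, whereas 14 of 15 markers of other cell types were above background on none and Ms4a1 was on 1 array. The 16 arrays lay on 2 chips, each of which held 1 array of every group. RNA came from whole cultures, so a change in the number of cells that express a gene and a change in the RNA of each cell cannot be told apart. The labels do not say whether the 2 arrays of a group came from separate cultures, so p-values measure the spread between these arrays, which may be technical.

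The promoter windows of Cish and Socs3 are shown because both genes rose in control cells and both were lower in Akti1/2-treated cells at 2 and 6 h, and because theirs were the only member windows that held the palindrome TTCNNNGAA, the core of STAT binding sites. RefSeq windows of 300 bases (250 before and 50 after a start site, build GRCm38.p6) were listed for 6 of the 9 members, 7 windows in all. Cish lies on chromosome 9 (107296659 to 107302784, plus strand) and Socs3 on chromosome 11 (117966079 to 117970336, minus strand). The Cish stretch runs from 250 bases before its start site to base 20 after it, at chr9:107296409-107296678 on the plus strand. The Socs3 stretch is 29 bases at chr11:117969502-117969530 on the minus strand, within the gene's annotated span and upstream of the start site of its listed window. Capitals mark the palindrome.
Cish: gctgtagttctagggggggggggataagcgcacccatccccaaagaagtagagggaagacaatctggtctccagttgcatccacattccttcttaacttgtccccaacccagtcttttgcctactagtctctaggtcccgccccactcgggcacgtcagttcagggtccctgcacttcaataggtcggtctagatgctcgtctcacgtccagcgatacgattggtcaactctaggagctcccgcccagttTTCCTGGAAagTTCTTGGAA
Socs3: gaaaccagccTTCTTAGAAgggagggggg
In Cish the palindrome occurred at base 1 and again at base 12 counted from the start site, and in Socs3 its first base was at -154. The same letters were found in 8.3% of 32851 promoter windows. The variant with 4 bases between TTC and GAA was in no member window and in 6.95% of all windows. The AP-1 letters TGACTCA were also in no member window (5.2% of all windows). The FOXO letters GTAAACA were in 1 of the windows of Pim1, at -70 (3.65% of all windows), and an NF-kB motif was in that of Pim3, at -136 (8.46% of all windows). All motifs were searched on both strands, no match overlapped another, and a match of letters is a description of the window only.

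Of the 9 genes, Cish, Socs2, Pim2 and Pim3 were above background on all 16 arrays and Socs3 on 11. Socs1 was above background on 4 arrays and Socs7 on 3. Socs5 and Pim1 were above background on none, with unnormalized intensities of 106 to 131 for Socs5 and 123 to 162 for Pim1. These 2 genes were therefore left out of the tests, since a probe at background gives an upper bound and no level. The 7 remaining members passed the filter on dim genes (above background on at least 2 arrays) and were tested with 7395 genes in all. A gene was called when its Benjamini-Hochberg adjusted p from limma, over all tested genes of that comparison, was under 0.05. Levels are normalized log2 intensities, given for replicate 1 and then replicate 2, and are compared within a gene only.

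**Figure D1:**
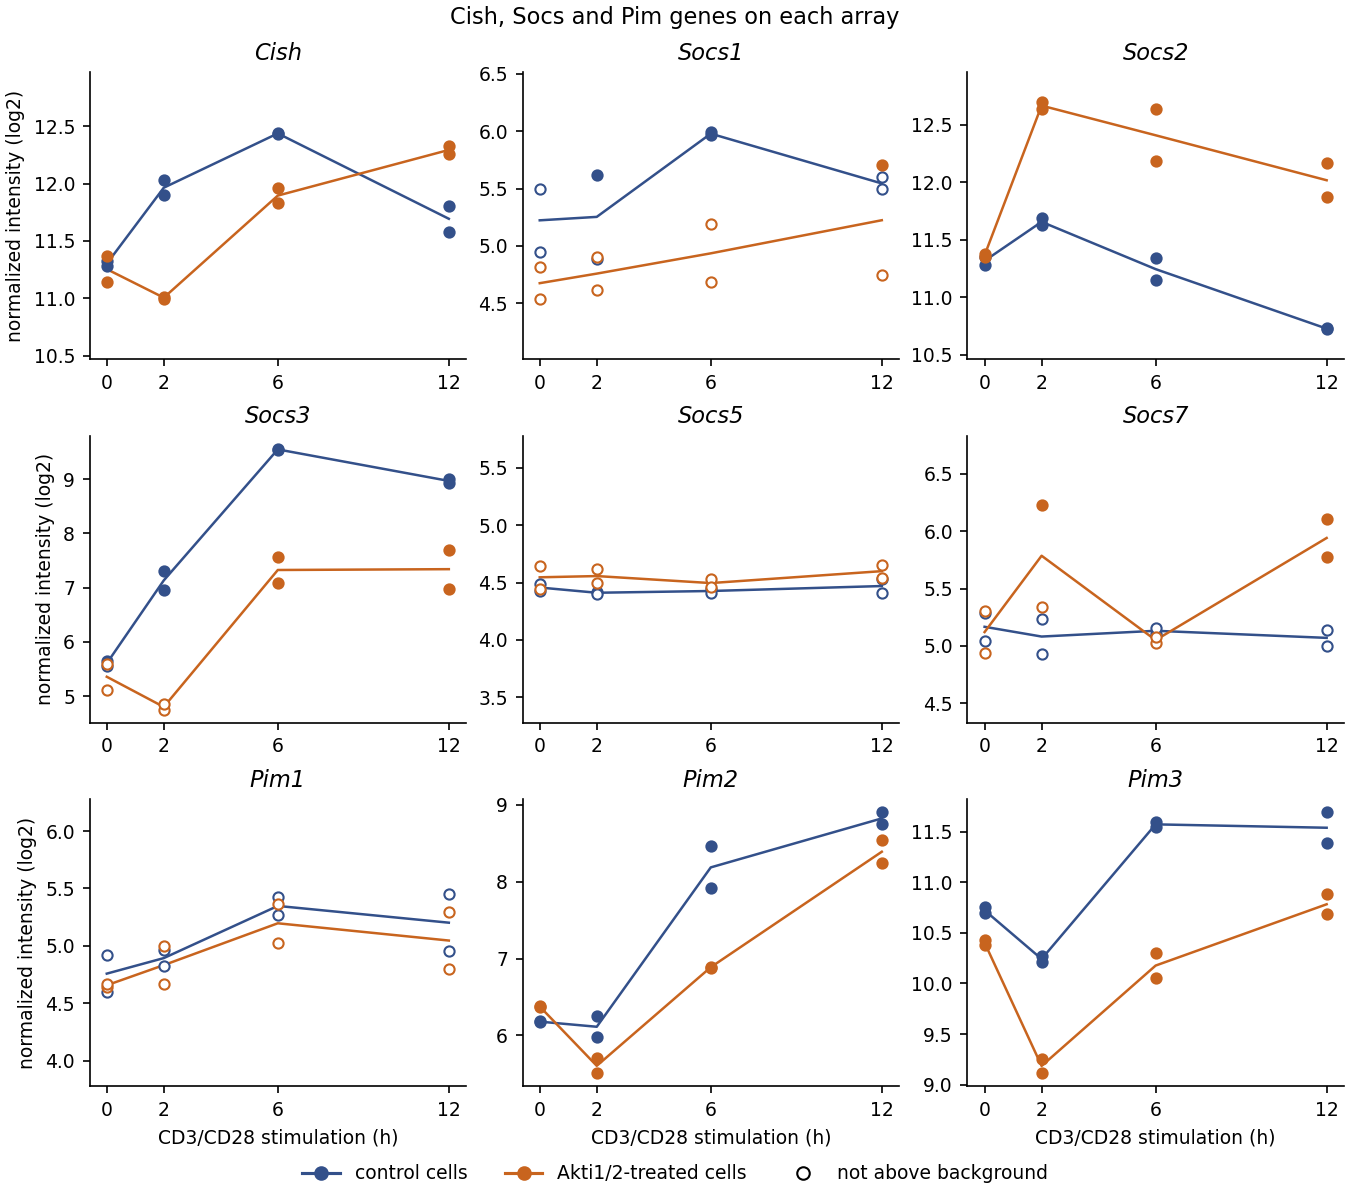
Normalized log2 intensity (vertical axis, own range in each panel) of the 9 genes on each of 16 arrays against hours of CD3/CD28 stimulation, with lines through group means. Blue is control, orange Akti1/2-treated, and open points are arrays not above background; Cish crosses between 6 and 12 h, Socs2 is higher with Akti1/2 from 2 h on, and Socs3 and Pim3 are lower from 2 h on.

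In control cells, stimulation raised Socs3, Cish, Pim2 and Pim3, each with its own time course. Socs3, an inhibitor of signals through gp130 family receptors and of JAK kinases, stood at 5.66 and 5.55 at 0 h, at 7.31 and 6.95 at 2 h, at 9.56 and 9.54 at 6 h and at 9.01 and 8.93 at 12 h. Only 1 of the 2 arrays at 0 h was above background, and the arrays of 2, 6 and 12 h all lay above it. Socs3 rose by 1.53 ± 0.23 (log2 change ± SE, n = 2 arrays per group) at 2 h, by 3.94 or 15.4-fold at 6 h (adjusted p = 1.52e-07) and by 3.36 or 10.3-fold at 12 h. Without background correction the changes were called at smaller sizes, 0.65, 2.41 and 1.92. The change from 6 to 12 h, -0.58 ± 0.23, was not called (adjusted p = 0.122).

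Cish, which competes with STAT5 at the IL-2 receptor and is also known to restrain T cell receptor signals, was at 11.32 and 11.28 at 0 h in control cells. It reached 12.03 and 11.90 at 2 h, 12.44 and 12.43 at 6 h, and was at 11.58 and 11.81 at 12 h. The arrays of 6 h were above those of every other time, and those of 12 h were back below those of 2 h. Cish rose by 0.66 ± 0.12 at 2 h (adjusted p = 0.00345) and by 1.14 or 2.20-fold at 6 h, and fell by 0.74 between 6 and 12 h (adjusted p = 0.00146). At 12 h it was still 0.39 above 0 h (adjusted p = 0.0234). That last call was lost without either 0 h array (adjusted p = 0.078 without replicate 1 and 0.114 without replicate 2) and without replicate 2 of 12 h (0.27, adjusted p = 0.196).

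Pim2 was at 6.17 and 6.19 at 0 h and at 6.25 and 5.98 at 2 h, and these groups overlapped. It then stood at 7.91 and 8.46 at 6 h and at 8.90 and 8.74 at 12 h, so that it was the member whose highest control level came last. Pim2 rose by 2.01 ± 0.17 at 6 h (4.02-fold, adjusted p = 4.48e-06) and by 2.64 at 12 h (6.24-fold), or by 1.13 and 1.61 without background correction, both called. The further rise from 6 to 12 h, 0.64 (adjusted p = 0.0269), was 0.36 without replicate 1 of 6 h (adjusted p = 0.231), and was also not called without either 12 h array (adjusted p = 0.16 without replicate 1 and 0.0728 without replicate 2).

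Pim3 first went down and then up. It was at 10.69 and 10.75 at 0 h and at 10.21 and 10.27 at 2 h. Its 6 h arrays read 11.59 and 11.55 and its 12 h arrays 11.69 and 11.39, with no overlap between 0 h and any later time. Pim3 fell by 0.48 ± 0.13 at 2 h (adjusted p = 0.0335), a call lost when any of the 4 arrays compared was left out (adjusted p = 0.118 to 0.160). It rose by 1.33 from 2 to 6 h (adjusted p = 6.16e-05), and its 6 h and 12 h levels were 0.85 and 0.82 above that of 0 h.

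Socs2, which limits growth hormone receptor and other STAT5 signals, changed little early in control cells and declined late. Its levels were 11.35 and 11.28 at 0 h and 11.63 and 11.69 at 2 h. Those of 6 h were 11.34 and 11.15, and those of 12 h were 10.72 and 10.73. The changes of 0.34 at 2 h and -0.07 at 6 h were not called (adjusted p = 0.162 and 0.762). At 12 h Socs2 fell by 0.59 ± 0.15 on the log2 scale (adjusted p = 0.00942), which was not called without replicate 1 of 0 h (adjusted p = 0.0628) or replicate 1 of 12 h (adjusted p = 0.0535).

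Across the control time course, 3 of the 7 tested members were called at 2 h (2 higher, 1 lower), 4 at 6 h (all higher) and 5 at 12 h (4 higher, 1 lower). The percentage of all tested genes called was 10.3 at 2 h (4.42 higher, 5.86 lower), 27.6 at 6 h (12.2 higher, 15.4 lower) and 27.8 at 12 h (12.7 higher, 15.1 lower). From 2 to 6 h, 4 members were called, all higher (14.6% of all tested genes), and from 6 to 12 h 3 members, of which Pim2 was higher and Cish and Socs2 were lower (13.6% of all tested genes). The count from 6 to 12 h was 1 without replicate 1 of 6 h or either array of 12 h. The median change of the 7 members at 6 h was 0.85 on the log2 scale and that of all tested genes was -0.02. The count at 12 h was 3 without replicate 1 of the 0 h control group.

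**Figure D2:**
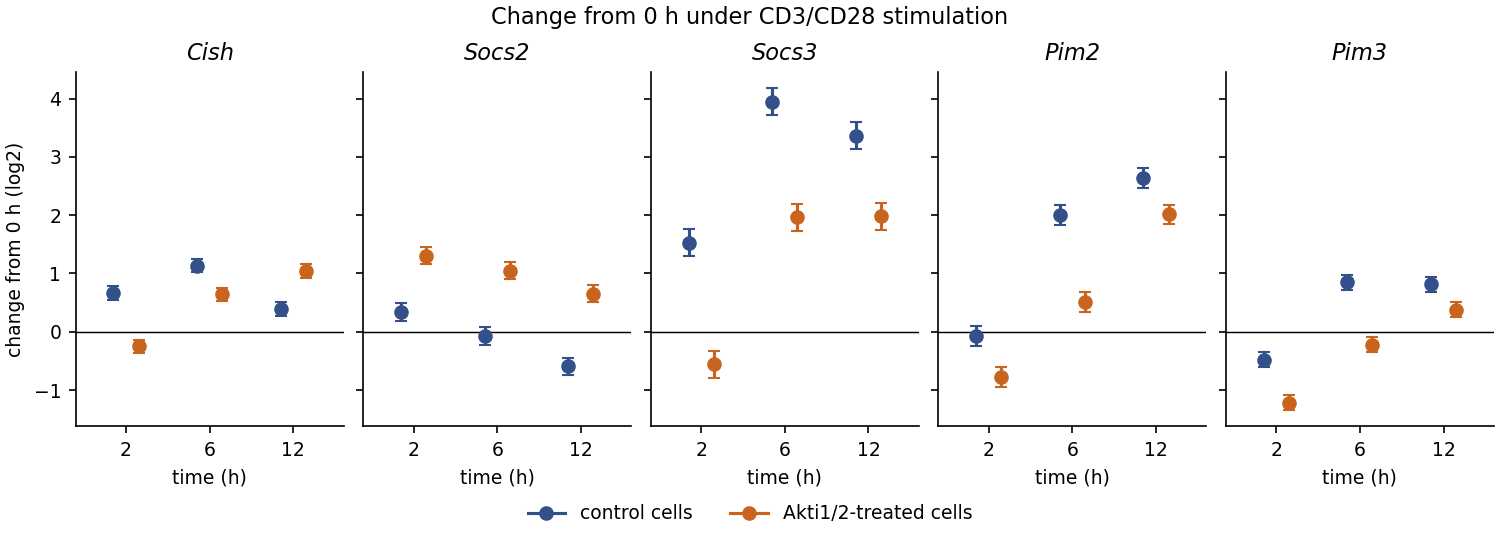
Log2 change from 0 h (vertical axis, one scale for all panels) at 2, 6 and 12 h in control (blue) and Akti1/2-treated cells (orange) for the 5 members above background on most arrays; points are fitted differences of group means and bars are standard errors. Socs3 shows the largest change, 3.94 at 6 h in control cells, and for Cish the order of the arms is turned at 12 h.

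In Akti1/2-treated cells the same 5 genes were followed from their own 0 h level. Socs3 was not above background on any of the 4 arrays of 0 h (5.60 and 5.12) and 2 h (4.75 and 4.85). It was at 7.57 and 7.08 at 6 h and at 6.98 and 7.70 at 12 h. The rise came between 2 and 6 h, was at least 3.66-fold (adjusted p = 4.26e-05), and left Socs3 between its control levels of 0 h and 6 h. Without background correction this change was 1.01 on the log2 scale and was called. A bound of this kind sets the brighter group against the dimmest signal that counted as above background on each array, and holds for background-corrected values only.

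Cish was at 11.37 and 11.14 at 0 h in Akti1/2-treated cells and at 11.00 and 11.01 at 2 h, a difference of -0.25 that was not called (adjusted p = 0.107). It stood at 11.96 and 11.83 at 6 h and at 12.26 and 12.33 at 12 h. Cish thus rose later than in control cells, by 0.64 at 6 h (adjusted p = 0.00113) and by 1.04 or 2.05-fold at 12 h (adjusted p = 1.75e-05). The rise from 6 to 12 h was 0.40 (adjusted p = 0.0333), and it was not called without replicate 2 of 6 h or without either 12 h array (0.33 to 0.43, adjusted p = 0.0991 to 0.155).

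Socs2 rose with Akti1/2. It went from 11.38 and 11.35 at 0 h to 12.64 and 12.70 at 2 h, and was at 12.18 and 12.64 at 6 h and at 11.87 and 12.17 at 12 h. All 6 arrays of stimulated, Akti1/2-treated cells were above every control array. The increase was 1.30 ± 0.15 at 2 h (2.47-fold, adjusted p = 5.56e-05), 1.04 at 6 h and 0.65 at 12 h (adjusted p = 0.0032).

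The PIM genes fell first and recovered later. Pim2 went from 6.39 and 6.36 at 0 h to 5.70 and 5.51 at 2 h, and then to 6.90 and 6.88 at 6 h and 8.24 and 8.54 at 12 h. It fell by 0.77 at 2 h (adjusted p = 0.00412), which without background correction was a change of -0.28 (adjusted p = 0.0514). It was 2.01 above its 0 h level at 12 h (adjusted p = 1.8e-06), or 1.19 without background correction, also called. The 6 h increase of 0.51 (adjusted p = 0.0349) was not called when any of the 4 arrays compared was left out (adjusted p = 0.0957 to 0.126).

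Pim3 was at 10.38 and 10.43 at 0 h with Akti1/2, at 9.26 and 9.11 at 2 h, at 10.30 and 10.05 at 6 h and at 10.88 and 10.68 at 12 h. The 2 h arrays were the lowest of all 16. Pim3 fell by 1.22 ± 0.13 at 2 h (adjusted p = 3.6e-05), did not differ by a called amount from 0 h at 6 h (-0.23, adjusted p = 0.204), and was 0.38 higher at 12 h (adjusted p = 0.0298). The 12 h call was lost without either 0 h array or without replicate 1 of 12 h (0.28 to 0.41, adjusted p = 0.0816 to 0.192).

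In Akti1/2-treated cells 4 of 7 members were called at 2 h against 0 h (2 higher, 2 lower), 4 at 6 h (all higher) and 6 at 12 h (all higher). All member counts here but that of 6 h against 0 h include Socs7. That gene passed the filter on dim genes only through arrays of 2 h and 12 h with Akti1/2. The percentages over all tested genes were 38.7 at 2 h (17.8 higher, 20.9 lower), 33.3 at 6 h (15.5 higher, 17.9 lower) and 44.5 at 12 h (21.1 higher, 23.3 lower). From 2 to 6 h 5 members were called (30.2% of all tested genes) and from 6 to 12 h 4 members (17.7% of all tested genes), the latter count being 1 without replicate 2 of 6 h or replicate 1 of 12 h.

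Before stimulation, 1 h of Akti1/2 gave no call among the members by limma, none by the J5 score at a threshold of 20, and 1 of the 7 had an unadjusted p under 0.05 (0.0541% of all tested genes were called). Among members above background on all arrays Pim3 differed most, by -0.32 ± 0.13 and by -0.32 on each chip (adjusted p = 0.921). Cish, Socs2 and Pim2 differed by -0.05, 0.05 and 0.20 at 0 h.

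After 2 h, Socs3, Cish, Pim3 and Pim2 were lower in Akti1/2-treated than in control cells and Socs2 was higher. Socs3 was at least 3.20-fold lower (log2 difference of the measured means -2.33 ± 0.23, adjusted p = 4.73e-05, and -0.90 without background correction, also called). Cish differed by -0.96 ± 0.12 or 1.94-fold (adjusted p = 0.000173), with -1.03 and -0.88 on the 2 chips. Pim3 differed by -1.06 ± 0.13 or 2.08-fold (adjusted p = 0.000181). Socs2 differed by 1.01 ± 0.15 or 2.02-fold (adjusted p = 0.000523), and by 1.01 on each chip. In all 4 genes the control and Akti1/2-treated arrays did not overlap. This is a description of genes already called, and its share over all tested genes was not counted. With arrays scaled to the same mean in place of quantile normalization the differences were -2.11, -1.12, -1.14 and 0.90 in the same order, and scaled to the same 95th percentile they were -1.98, -0.98, -1.01 and 1.03, all called. The mean intensities were 414 and 394 for the Akti1/2-treated and 529 and 467 for the control arrays.

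Pim2 at 2 h was the least secure of these differences. Its arrays read 6.25 and 5.98 without and 5.70 and 5.51 with Akti1/2, a difference of -0.51 ± 0.17 (adjusted p = 0.0416). The call was lost when arrays were scaled to the same mean (-0.33, adjusted p = 0.139) or to the same 95th percentile (-0.20, adjusted p = 0.352), without background correction (-0.17, adjusted p = 0.244), and without 9 of the 16 arrays in turn, such as replicate 1 of the 2 h control group (-0.37, adjusted p = 0.237) and replicate 2 of the 2 h Akti1/2-treated group (-0.41, adjusted p = 0.202).

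At 6 h, 5 members were lower and 1 was higher with Akti1/2. Socs3 differed by -2.22 ± 0.23 or 4.67-fold (adjusted p = 2.09e-05), Pim3 by -1.39 ± 0.13 or 2.63-fold (adjusted p = 8.43e-06) and Pim2 by -1.30 ± 0.17 or 2.46-fold (adjusted p = 0.000102). Cish differed by -0.54 ± 0.12 or 1.46-fold (adjusted p = 0.00297). Socs2 differed by 1.17 ± 0.15 or 2.24-fold (adjusted p = 7.7e-05), with 0.84 on one chip and 1.49 on the other. Without background correction the difference of Pim2 was -0.81 and that of Socs1, described further on, -0.33, both called. Among these 5 genes each difference had 1 sign on both chips and no array of one arm lay within the range of the other. The shares of all tested genes for which this held were not counted, and a call makes it likely.

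At 12 h, Cish had changed sides. It was at 11.58 and 11.81 in control and at 12.26 and 12.33 in Akti1/2-treated cells, 0.60 ± 0.12 or 1.52-fold higher (adjusted p = 0.000964), with 0.45 and 0.75 on the 2 chips. The change of the Akti1/2 effect on Cish from 2 to 12 h was 1.56 (adjusted p = 6.69e-05), the only call of that comparison among the members (31.4% of all tested genes). Time since Akti1/2 was added also differed between 2 and 12 h. Socs2 stayed higher by 1.29 ± 0.15 or 2.45-fold (adjusted p = 1.7e-05). Socs3 was lower by 3.09-fold (-1.63 ± 0.23, adjusted p = 0.000105) and Pim3 by 1.69-fold (-0.76 ± 0.13, adjusted p = 0.00039). For Pim2 the difference was -0.43 ± 0.17 and was not called (adjusted p = 0.0506), with arrays at 8.90 and 8.74 against 8.24 and 8.54.

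**Figure D3:**
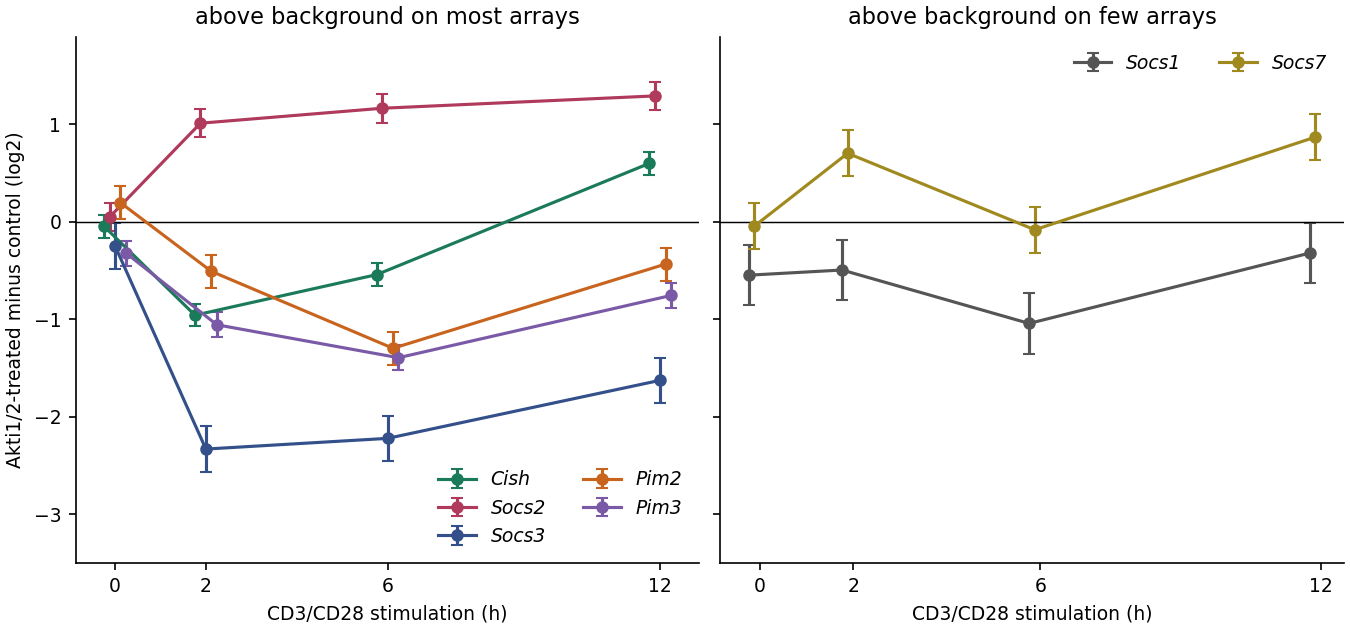
Log2 difference of Akti1/2-treated minus control cells (vertical axis) against hours of CD3/CD28 stimulation for the 7 tested members, with standard errors as bars. On the left, Cish moves from -0.96 at 2 h to 0.60 at 12 h while from 2 h on Socs2 stays between 1.01 and 1.29 and Socs3 between -2.33 and -1.63; on the right are Socs1 and Socs7, which were near background on most arrays.

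Counted over the 7 tested members, 6 differed with Akti1/2 at 2 h (2 higher, 4 lower), 6 at 6 h (1 higher, 5 lower) and 5 at 12 h (3 higher, 2 lower). Those higher at 2 and 12 h include Socs7, which passed the filter on dim genes only through Akti1/2-treated arrays. Of all tested genes 28.4% were called at 2 h (13.5% higher, 14.9% lower), 37.6% at 6 h (18.8% in each direction) and 49.0% at 12 h (24.2% higher, 24.8% lower). The members' median differences were -0.51, -1.04 and -0.32, and those of all tested genes were -0.01, -0.01 and -0.02. Each called member had the same sign on both chips, which a call makes likely and which was not counted over all tested genes.

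Whether the change from 0 h differed with Akti1/2 was tested as the response with minus the response without the inhibitor. No cells of either arm were left unstimulated for 2, 6 or 12 h, and time since Akti1/2 was added rose with time of stimulation. A changed response to CD3/CD28 and a longer time since Akti1/2 was added therefore cannot be told apart. At 2 h the difference was -2.08 ± 0.33 for Socs3 (adjusted p = 0.00462), -0.91 ± 0.16 for Cish (adjusted p = 0.00783), 0.96 ± 0.21 for Socs2 (adjusted p = 0.0164) and -0.74 ± 0.18 for Pim3 (adjusted p = 0.0284). At 6 h it was -1.98 for Socs3, -1.49 for Pim2, -1.07 for Pim3 and 1.12 for Socs2 (adjusted p between 0.00128 and 0.00305), whereas that of Cish, -0.49, was not called (adjusted p = 0.0518). At 12 h it was -1.38 for Socs3 (adjusted p = 0.00685), 0.65 for Cish (adjusted p = 0.00936) and 1.24 for Socs2 (adjusted p = 0.000751), and -0.63 for Pim2 and -0.44 for Pim3 were not called (adjusted p = 0.0627 and 0.0861). Thus 4, 4 and 3 members were called at 2, 6 and 12 h, beside 8.41%, 19.6% and 32.5% of all tested genes.

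For Socs3 these values include the 0 h Akti1/2-treated group, which was not above background, and at 2 h also the 2 h Akti1/2-treated group, so they depend on readings at background, and the 2 h value was -0.82 without background correction. That of Pim2 at 6 h was then -0.89, and both were called. The 2 h call of Pim3 did not hold without any 1 of 7 of the 8 arrays of 0 and 2 h, with adjusted p from 0.0641 to 0.0948, the exception being replicate 1 of the 2 h Akti1/2-treated group. That of Socs2 at 2 h was lost without replicate 1 of the 0 h control group, either 0 h Akti1/2-treated array, replicate 1 of the 2 h control group or replicate 2 of the 2 h Akti1/2-treated group (adjusted p = 0.05 to 0.0623). The count of 4 at 2 h was then 2 in 4 of these cases, without replicate 1 of the 0 h control group, either 0 h Akti1/2-treated array or replicate 1 of the 2 h control group.

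Ordered by level, the 8 groups fell differently for each gene. For Cish the lowest group was 2 h with Akti1/2 and the highest was 6 h control, next to 12 h with Akti1/2, and these neighbours did not overlap. For Socs2 the lowest was 12 h control and the highest were 2 h and 6 h with Akti1/2, which overlapped. For Socs3 the lowest was 2 h with Akti1/2, and the middle of the order held 2 h control and 6 h and 12 h with Akti1/2, which overlapped, below 12 h control and 6 h control. For Pim2 the order ran from 2 h with Akti1/2 up to 12 h control, and the groups of 6 h control and 12 h with Akti1/2 overlapped. For Pim3 the lowest was 2 h with Akti1/2 and the highest were 12 h and 6 h control, which overlapped. By mean level the 2 h Akti1/2-treated group was thus the lowest of 8 for Cish, Socs3, Pim2 and Pim3. For Socs3 this group and 0 h with Akti1/2 were not above background, so their order is not a difference of level. For Cish the difference between these 2 groups was not called (-0.25, adjusted p = 0.107). Both 2 h Akti1/2-treated arrays also had the lowest mean intensities of the series.

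Socs1 and Socs7 were close to background. Socs1, a direct inhibitor of JAK kinases, was above background on both 6 h control arrays (5.99 and 5.97), on replicate 1 of 2 h control (5.62) and on replicate 2 of 12 h with Akti1/2 (5.70), and not on the other arrays, which read 4.54 to 5.60. At 6 h it was at least 1.31-fold lower with Akti1/2 (5.19 and 4.68, measured difference -1.04 ± 0.31, adjusted p = 0.0189). This call was lost without either 6 h control array (adjusted p = 0.0721 and 0.0701 without replicates 1 and 2) and when replicate 2 of 6 h with Akti1/2 was dropped (-0.78, adjusted p = 0.133).

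Socs7, a SOCS family member that interacts with insulin receptor substrates and adaptor proteins, was above background on replicate 1 of 2 h with Akti1/2 (6.23) and on both 12 h Akti1/2-treated arrays (6.10 and 5.78). It was above background on no other array, so it passed the filter on dim genes only through groups where it was high. Its calls below are partly fixed by that filter and are given as a description. At 12 h it was at least 1.18-fold higher with Akti1/2 than in control cells, whose arrays read 5.14 or less (measured difference 0.87 ± 0.24, adjusted p = 0.00899), and the call was lost without replicate 1 of either group (0.80, adjusted p = 0.0573 for the control and 0.70, adjusted p = 0.0796 for the Akti1/2-treated array). At 2 h its arrays read 6.23 and 5.34 with Akti1/2 against 4.93 and 5.23, and the call (0.70, adjusted p = 0.043) rested on 1 array above background: without it the difference was 0.26 (adjusted p = 0.371), and without the other 2 h Akti1/2-treated array it was 1.16. Without background correction the differences of Socs7 were 0.22 at 2 h, not called, and 0.27 at 12 h, called.

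The genes whose log2 levels followed each member most closely over the 16 arrays are given as a description, since the arrays share groups and chips. For Cish these were Ado, Sh3pxd2b and Degs1, with Pearson's r of 0.928, 0.927 and 0.906. For Socs2 they were Serinc1, Abi1 and Sf4 (0.969, 0.968 and 0.967). For Socs3 they were Il5, a T helper 2 cytokine that acts on eosinophils, Plagl2 and Klrg1 (0.967, 0.959 and 0.958). Pim2 was followed by Irf5, 2310047D13Rik and Mif4gd (0.978, 0.977 and 0.977), and Pim3 by Ptplad1, Igtp and Ptpn6, the last of which encodes the phosphatase SHP-1 (0.954, 0.949 and 0.933). For the dim members the closest genes reached 0.842 for Socs1 (Heatr1, then Ptplad1 and 6720458F09Rik at 0.835 and 0.820) and 0.832 for Socs7 (Scrib, with Zfp68 at 0.803). Ptplad1 was the only gene named for more than 1 member.

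Of 18 cytokines on the array that signal through JAK and STAT proteins, 10 were tested. A cytokine at background before stimulation could enter the test only through stimulated groups where it was high. The counts for this list are therefore partly shaped by the filter. In control cells at 6 h all 10 were higher than at 0 h (12.2% of all tested genes were), with a median of 3.59 on the log2 scale, which includes Il3, not above background at 0 h. With Akti1/2 at 6 h, 9 were lower and 1 was higher, with a median of -1.97, beside 18.8% of all tested genes in each direction. Il13, Il5 and Il3, growth and effector cytokines of T helper 2 cells, differed by -3.44, -2.33 and -2.07 at 6 h (adjusted p = 7.79e-05, 2.98e-05 and 2.98e-05). At 12 h 9 ligands were lower and 1 was higher (median -1.34), where 24.8% and 24.2% of all tested genes were, and Cish and Socs2 were higher.

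Among 13 tested cytokine receptor chains of 27 on the array, 7 were lower and 1 higher with Akti1/2 at 6 h (median -0.47), when 37.6% of all tested genes were called. The chains of the IL-2 receptor, which uses JAK1, JAK3 and STAT5, were all lower at 6 h. Il2ra, its alpha chain, was at 10.48 and 10.36 in control and at 8.61 and 9.35 in Akti1/2-treated cells (-1.44, adjusted p = 0.000329). At 12 h it was at 10.29 and 10.14 against 7.77 and 8.40 (-2.13, adjusted p = 8.99e-06). Il2rb and Il2rg differed by -0.99 and -0.51 at 6 h (adjusted p = 0.00498 and 0.0149). At 12 h Il2rg differed by -0.64 (adjusted p = 0.00289) and Il2rb by -0.35 (adjusted p = 0.243). The Il15ra chain differed by -1.02 and Ifngr1, a chain of the interferon gamma receptor, by 1.83 at 6 h. Il15ra was near background with Akti1/2 at 6 h (5.71 and 5.53, with 1 array above background). Il4ra was not above background on any array.

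The JAK and STAT genes did not move one way. Of 9 tested of 11 on the array, 1 had a higher and 1 a lower level in Akti1/2-treated cells at 6 h, and at 12 h 5 were higher and 1 was lower (median 0.48), beside 37.6% and 49.0% of all tested genes called. Stat5a, which encodes a STAT5 factor known to induce Cish and Socs2 in lymphocytes, was the lower one. It read 7.84 and 8.07 in control and 6.72 and 6.60 in Akti1/2-treated cells at 6 h (-1.29, adjusted p = 3.06e-05). At 12 h it read 7.95 and 8.08 against 6.73 and 6.76 (-1.27, adjusted p = 1.57e-05). Stat5b was above background on no array, so STAT5 was seen through Stat5a mRNA only, and these arrays do not measure phosphorylation. Stat4 was higher at 6 h (0.91), and Jak2 and Stat3 were higher at 12 h (0.91 and 0.67) but not called at 6 h (-0.25 and -0.05). Jak1 was not called at 2, 6 or 12 h, Jak3 was called at 2 h (0.64), and Stat6 differed by -0.50 at 2 h (adjusted p = 0.042) and by -0.08 and 0.26 later, which were not called. At 2 h Stat6 was above background on only 1 array of each arm.

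Genes linked to STAT5, most of them known to be induced by it, were listed from background knowledge. Of the 13 on the array, 10 were tested. With Akti1/2 at 6 h, 7 were lower and 1 was higher (median -1.11), and at 12 h the counts were again 7 and 1 (median -0.82). The higher one at 6 h was Bcl6, for which induction by STAT5 is not assumed here. It read 6.68 and 6.62 in control and 7.53 and 7.46 in Akti1/2-treated cells. Of all tested genes 37.6% were called at 6 h and 49.0% at 12 h. Bcl2l1 and Myc, a survival gene and a growth regulator, differed by -1.47 and -1.14 at 6 h. Lta, a cytokine, was at least 3.54-fold lower at 6 h (adjusted p = 1.86e-05), since neither Akti1/2-treated array was above background (measured difference -1.85). Socs2 differed by 1.17 in the opposite direction from Bcl2l1, Myc and Lta and in the same direction as Bcl6. The lists overlapped, so their counts are not separate. Il2ra was also counted among the receptor chains, and Myc and Bcl6 are counted again in lists below.

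**Figure D4:**
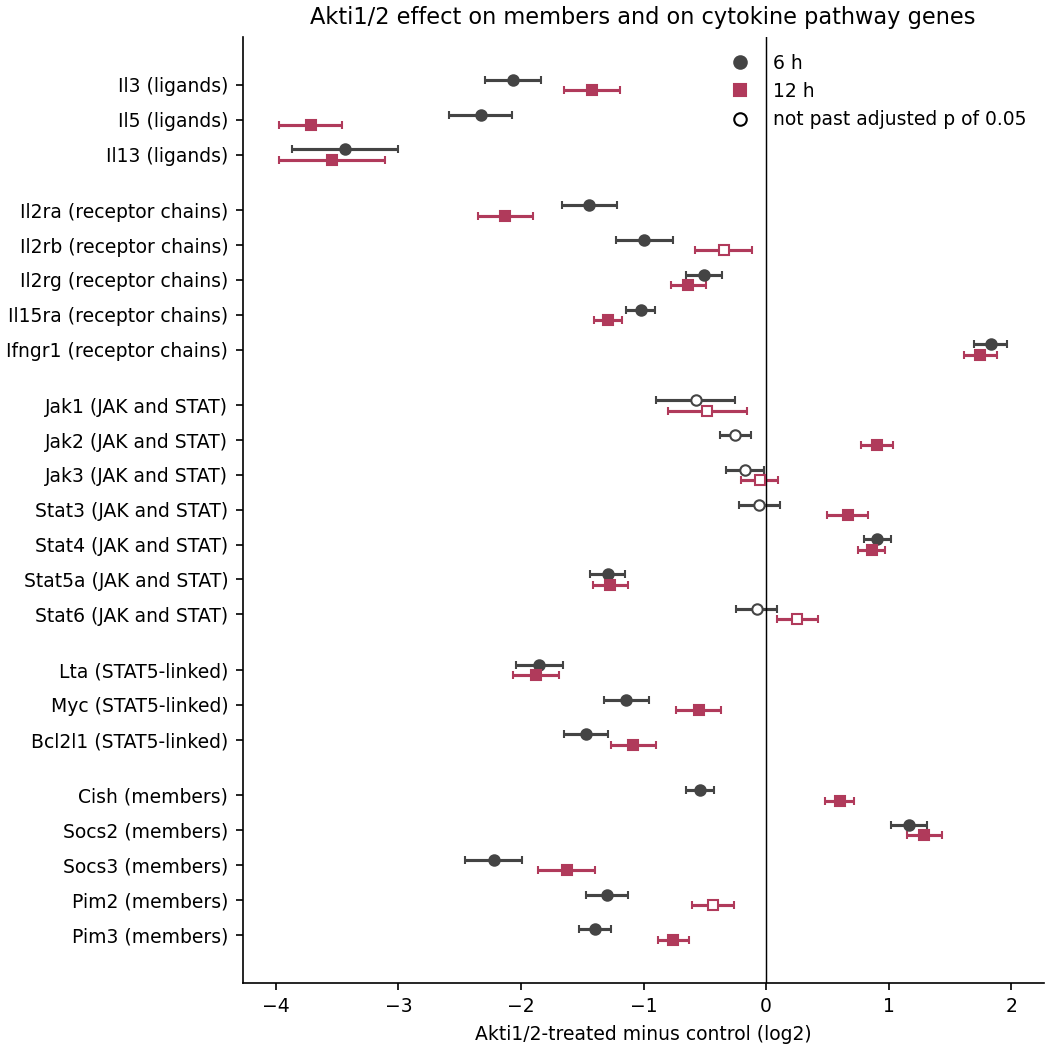
Log2 difference of Akti1/2-treated minus control cells (horizontal axis) at 6 h (grey circles) and 12 h (red squares) for cytokine, receptor, JAK and STAT and STAT5-linked genes and for 5 members, with standard errors as bars and open symbols where the adjusted p was not under 0.05; the 6 h value of Lta is a measured difference from a group not above background. Stat5a and Il2ra lie left of 0 at both times, Socs2 right of 0 at both, and Cish on opposite sides.

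For 3 lists of genes whose products work beside SOCS and PIM proteins, the counts are set beside the 37.6% of all tested genes called at 6 h. Among 6 genes listed as SOCS box ligase partners or other SOCS genes, all tested, 1 was called at 6 h. This was Tceb1, which encodes elongin C (-0.63, adjusted p = 0.00844), while Cul5, the cullin of this ligase, differed by -0.06. Cul2, also on this list, was above background only on 1 array of 2 h with Akti1/2 and 1 of 6 h control. Among 12 tested other negative regulators of JAK and STAT signals, 4 were higher and 5 lower at 6 h, the former including Pias3 (0.86), Pias4 (0.80) and Bcl6 (0.84). Those named had the largest differences of response at 6 h in the list, and the 5 lower genes are not named. Among 11 tested PIM substrates and partners, 2 were higher and 4 lower at 6 h. Cxcr4, a chemokine receptor that PIM1 is known to phosphorylate, differed by 2.66, and Eif4ebp1, a translation repressor phosphorylated in the mTOR pathway, by 1.67 (adjusted p = 1.28e-05 and 1.19e-06). Myc, also on this list, was lower at 6 h, at 6.80 and 6.41 with Akti1/2 against 7.71 and 7.78 in control cells. The medians of these 3 lists at 6 h were -0.08, 0.02 and -0.03, beside -0.01 over all tested genes.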

How the data were processed

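RNA from 16 D10 cultures or culture samples was hybridized to Illumina MouseRefSeq8 arrays. The authors deposited a GenomeStudio table (expression module 1.5.4 per the file header) of non-normalized intensities with a detection p-value for each of 18138 genes, and 832 control entries. Here the intensities were background corrected against 798 negative controls, quantile normalized and log2 transformed with an offset of 16 (neqc, limma 3.58.1, R 4.3.3). The deposited detection p-values were not used. Detection p was computed here as the share of the 798 negative controls of an array whose intensity equalled or exceeded that of the gene. Genes with detection p under 0.01 on at least 2 arrays (7395) entered 1 limma fit of 8 groups (8 residual and 4.29 prior degrees of freedom), with 18 contrasts and Benjamini-Hochberg adjustment within each at 0.05. The precision is limited by 2 arrays per group. The J5 score of the study, computed from linear intensities after scaling every array to one 95th percentile, has no p-value and was an alternative. A threshold of 20 was used throughout, which the study states for its 2 h lists, while those it used at 6 and 12 h are not given in the sources used here. Others changed background correction, scaling, the filter, the blocks and the arrays used.

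The members and all lists were chosen with earlier results of these data known. Genes named beside the 9 members were the 3 most correlated with each tested member (1 of them is not reported here), up to 3 detected genes of each list with the largest difference of response at 6 h, and a fixed set of JAK, STAT and receptor genes. The labels do not say whether replicate numbers pair the samples, and the main fit used no pairing. Deviations of arrays with the same number correlated at -0.296 to 0.264 (28 pairs of groups, 7 over 0.1). This cannot decide whether samples were paired, since number and chip coincided in every group but the 12 h control group. Groups came from the sample titles. On simulated data with 200 changed genes among 7395, the fit recovered 186 for Akti1/2-treated against control cells at 6 h, 86% of those changed by log2 1 and 100% of those changed by log2 2, with 12 calls not planted. For the difference of response at 6 h it recovered 155 of 200, 62% of those changed by log2 1 and 93% of those changed by log2 2, with 14 calls not planted. Promoter windows were read from a RefSeq table of build GRCm38.p6; 9 members matched the gene table by symbol. The table of control probe profiles, which covers fewer arrays, was not used.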

Additional observations from a re-analysis of the deposited data

Results flagged for a closer look

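Changes from 0 h that differed between control and Akti1/2-treated cells by limma's test of the difference are given as log2 values. Each is the response with minus the response without the inhibitor. Time since Akti1/2 was added rose with time of stimulation, so the effects of the 2 cannot be told apart. For Socs3 these were -2.08 at 2 h, -1.98 at 6 h and -1.38 at 12 h, with Akti1/2-treated cells not above background at 0 h. Socs2 had 0.96, 1.12 and 1.24 at the same times. Cish had -0.91 at 2 h and 0.65 at 12 h, and its Akti1/2 effect changed by 1.56 between 2 and 12 h. Pim2 had -1.49 at 6 h, and Pim3 had -0.74 at 2 h and -1.07 at 6 h.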

How the results depend on the processing

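Of 2970 comparisons of a member's value with its limma alternatives, 2811 kept direction and side of the threshold, 110 lost the call, 49 gained one and none reversed. A change of sign between 2 values that were both not called, which occurred 47 times, counts as kept. The replicate block left 125 of 126 values on their side, the exception being Pim2 at 2 h with Akti1/2 against control (adjusted p = 0.0511). With the chip as a block, Cish gained the call for the difference of response at 6 h (adjusted p = 0.0425). By the J5 score, Pim2 at 2 h with Akti1/2 against control was 0.12, Stat6 in Akti1/2-treated cells at 2 h against 0 h was 0.0756, Stat6 and Il15ra at 2 h with Akti1/2 against control were 0.128 and 0.11, all of opposite sign to limma. Members past a score of 20 numbered 1, 2 and 0 at 2, 6 and 12 h in control cells. They numbered 1, 1 and 1 in Akti1/2-treated cells, and 2, 3 and 1 for Akti1/2 against control. The score grows with linear intensity. The share of all genes past a score of 20, or called under the other alternatives, was not counted. Such counts therefore show only how the number of members moved. Without background correction 2 members were called in Akti1/2-treated cells at 2 h and 5 for the difference of response at 12 h. Only the groups compared gave 2 for Akti1/2-treated cells from 6 to 12 h and 5 for the difference of response at 12 h. Genes detected on all arrays gave 3 for Akti1/2-treated cells from 2 to 6 h, with Socs1, Socs3 and Socs7 not in that test. The other causes were not tested.

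With each array left out in turn, the number of members called in control cells was 2 to 3 at 2 h, 4 to 5 at 6 h and 3 to 5 at 12 h, in Akti1/2-treated cells 3 to 5, 3 to 4 and 4 to 6, and for Akti1/2 against control 0 to 0 at 0 h, 4 to 6 at 2 h, 5 to 6 at 6 h and 4 to 6 at 12 h. From 2 to 6 h it was 3 to 5 in control and 4 to 5 in Akti1/2-treated cells. From 6 to 12 h it was 1 to 3 in control cells, against 3 in the full fit (1 without replicate 1 of 6 h or either array of 12 h), and 1 to 4 in Akti1/2-treated cells, against 4 (1 without replicate 2 of 6 h or replicate 1 of 12 h). For the difference of response it was 2 to 5, 4 to 5 and 3 to 4 at 2, 6 and 12 h. For the change of the Akti1/2 effect between 2 and 12 h it was 1 to 2, with 2 without replicate 1 of the 12 h Akti1/2-treated group. Scaling to the same 95th percentile moved the median of all genes by 0.153, 0.113 and 0.142 at 2, 6 and 12 h for Akti1/2 against control.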
